A study of Mus musculus with 25 samples.

Results

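Imprinted genes were described here as a set of 37 named genes, chosen by symbol and not by any measured value, and read from the rows of both RNA count tables and from the wild type peak lists of H3K79me2 and H3K79me3. All 37 had a row in the table of 8-cell embryos, which lists 24062 genes. In the table of mouse embryonic stem cells (mESCs), which lists 35662 genes with a symbol, 31 of the 37 had a row. The other 6 (H19, Airn, Meg3, Rian, Mirg and Kcnq1ot1) are all noncoding RNAs and were not analysed in mESC RNA. No allele counts were used, so every level below is the sum of both parental alleles. The mESC groups were v6.5 cells, either wild type (3 RNA libraries) or Dot1L KO (2 RNA libraries), without treatment. The embryo groups were wild type 8-cell embryos of the cross B6D2F1 x Cast/EiJ, collected at 56 hours after fertilization in pools of 30 to 35, with DMSO (2 libraries) or SGC0946, a DOT1L inhibitor (2 libraries). Peaks came from mESC ChIP with the antibodies ab3594 (H3K79me2) and ab2621 (H3K79me3), with 2 wild type and 2 Dot1L KO lists per mark. The labels do not say whether replicates were separate cultures, whether the KO libraries came from 1 clone, or what dose of SGC0946 the embryos received, so the p-values measure only the spread between these libraries.

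Imprinted genes are transcribed mainly from the copy inherited from one parent, because a nearby imprinting control region carries DNA methylation that was set in the egg or in the sperm. After fertilization ZFP57 binds a methylated hexamer in these regions and recruits its corepressor TRIM28, which protects them while the rest of the genome loses methylation, and several clusters are silenced in cis by a long noncoding RNA such as Kcnq1ot1 or Airn. Many imprinted genes act on fetal growth, the placenta or neurons, and some of them are known to lose or gain methylation in cultured mESCs. DOT1L methylates H3 at K79, and the marks it makes lie over the beginning of transcribed genes.

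The promoters show the sequence that imprint protection reads and the sites that the marks cover. RefSeq promoter sequences of GRCm38.p6, the assembly also called mm10, span 300 bases from 250 before to 50 after a start site, and 31 of the 37 imprinted genes matched at least 1. Cdkn1c, H19, Impact, Peg10, Rtl1 and Sgce were not matched. The hexamer TGCCGC bound by ZFP57, searched on both strands (its reverse complement is GCGGCA), was found in 10 of 48 windows of imprinted genes, 20.8%, against 11.6% of 32851 windows of all genes. Counted by gene it was found in 9 of 31 (Grb10, Igf2, Mcts2, Meg3, Mest, Nnat, Plagl1, Snrpn and Zim1), against 13.1% of 27025 genes. A gene was counted if any of its windows held the hexamer. The imprinted genes had more windows per gene (48 for 31) than all genes had (32851 for 27025). Mest entered the window count through overlapping windows, which start at 30737800 and 30737803. Windows of imprinted genes were also richer in CpG, with a median of 12.5 CpG sites against 7.0 over all windows. The 250 bases before the start are shown for Plagl1 and Mest, which hold the hexamer (in capitals) and moved in opposite directions in mESC RNA, and for Gnas and Slc38a4, the members whose promoter window overlapped an H3K79me2 region and which hold no hexamer there. A match describes these letters and not a bound site.
Plagl1, chr10:13090582-13090831, plus strand: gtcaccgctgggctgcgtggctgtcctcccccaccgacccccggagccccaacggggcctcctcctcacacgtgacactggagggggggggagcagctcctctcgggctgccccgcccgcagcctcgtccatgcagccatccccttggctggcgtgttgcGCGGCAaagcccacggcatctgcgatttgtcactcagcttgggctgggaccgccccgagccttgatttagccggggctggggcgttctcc
Mest, chr6:30737803-30738052, plus strand: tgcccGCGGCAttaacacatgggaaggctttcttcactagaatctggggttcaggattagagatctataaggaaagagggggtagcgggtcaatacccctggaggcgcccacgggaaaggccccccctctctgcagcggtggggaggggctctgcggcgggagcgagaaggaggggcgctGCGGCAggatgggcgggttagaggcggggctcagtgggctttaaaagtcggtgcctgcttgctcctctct
Gnas, chr2:174284070-174284319, plus strand: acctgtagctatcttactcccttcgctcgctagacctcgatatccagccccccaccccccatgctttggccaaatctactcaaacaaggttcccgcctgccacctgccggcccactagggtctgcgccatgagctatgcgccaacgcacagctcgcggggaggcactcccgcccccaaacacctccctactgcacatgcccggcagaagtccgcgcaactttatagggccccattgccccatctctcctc
Slc38a4, chr15:97031214-97031463, minus strand: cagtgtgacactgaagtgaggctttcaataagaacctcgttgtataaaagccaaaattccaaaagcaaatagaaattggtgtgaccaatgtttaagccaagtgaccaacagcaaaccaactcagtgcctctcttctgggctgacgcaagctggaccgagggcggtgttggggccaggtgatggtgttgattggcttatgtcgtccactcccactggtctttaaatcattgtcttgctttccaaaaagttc

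Library totals lay between 26856146 and 33750470 counts for the mESC table and between 24950199 and 32479590 counts for the embryo table. Levels below are CPM, a count divided by the TMM-scaled size of its library, and are compared between libraries of 1 gene and not between genes, since no gene lengths were given. Dot1l RNA was lower in KO cells, at 71.6 and 81.4 CPM against 96.8 to 104 CPM in wild type (log2 fold change -0.39 ± 0.06 SE, adjusted p = 1.62e-04). The labels do not say which part of Dot1l was removed, so a count over the whole gene is a weak check of the label. For several cell types, summed marker levels moved with genotype in mESCs. Those of 8 stem cell markers were 4496 to 4553 CPM in wild type and 3984 and 4147 CPM in KO, those of 8 primitive endoderm markers 75.0 to 78.3 and 120 and 125 CPM, those of 8 feeder fibroblast markers 155 to 198 and 198 and 246 CPM, and those of 6 markers of 2-cell-like cells 34.1 to 36.5 and 77.6 and 90.6 CPM. Among them, 5 of the 8 primitive endoderm genes, 3 of the 8 fibroblast genes and 3 of the 6 2-cell-like genes rose, none of these fell, and in the stem cell list 1 rose and 4 fell. Of 8 trophoblast markers 4 rose and 2 fell, with sums of 138 to 143 and 134 and 137 CPM. The feeder fibroblast sums overlapped between the genotypes, at 197.5 CPM in KO replicate 2 and 198.1 CPM in WT replicate 1. The part of these other cell types in the levels of imprinted genes was not tested, and in bulk RNA fewer cells of a type and less RNA per cell cannot be told apart.

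In mESCs, 24 of the 31 imprinted genes changed in Dot1L KO cells: 16 rose and 8 fell (edgeR quasi-likelihood test, Benjamini-Hochberg adjusted p under 0.05). The background was wide, since 43.7% of the 19561 genes tested passed the same test, 22.3% as higher and 21.4% as lower. The median log2 fold change of the 31 genes was 0.20, against 0.00 over all genes, and the median size of change was 0.33 against 0.24. A change of at least 1 on the log2 scale was reached by 6 of the 31, namely Asb4, Phlda2, Nnat, Magel2, Peg12 and Plagl1, against a background of 7.62%. At an unadjusted p under 0.05 there were 26 of 31, against 50.6% of all genes. The groups did not overlap for 17 genes that were higher and 9 that were lower in KO, and groups did not overlap for 62.5% of all genes (31.9% as higher and 30.5% as lower). Against a minimum log2 change of 0.5, 11 of the 31 passed, 7 higher and 4 lower, and 9.6% of all genes did. Upper-quartile scaling called 18 imprinted genes higher and 7 lower, and it moved the split of all calls from 4358 higher and 4190 lower to 5488 and 3170.

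**Figure D1:**
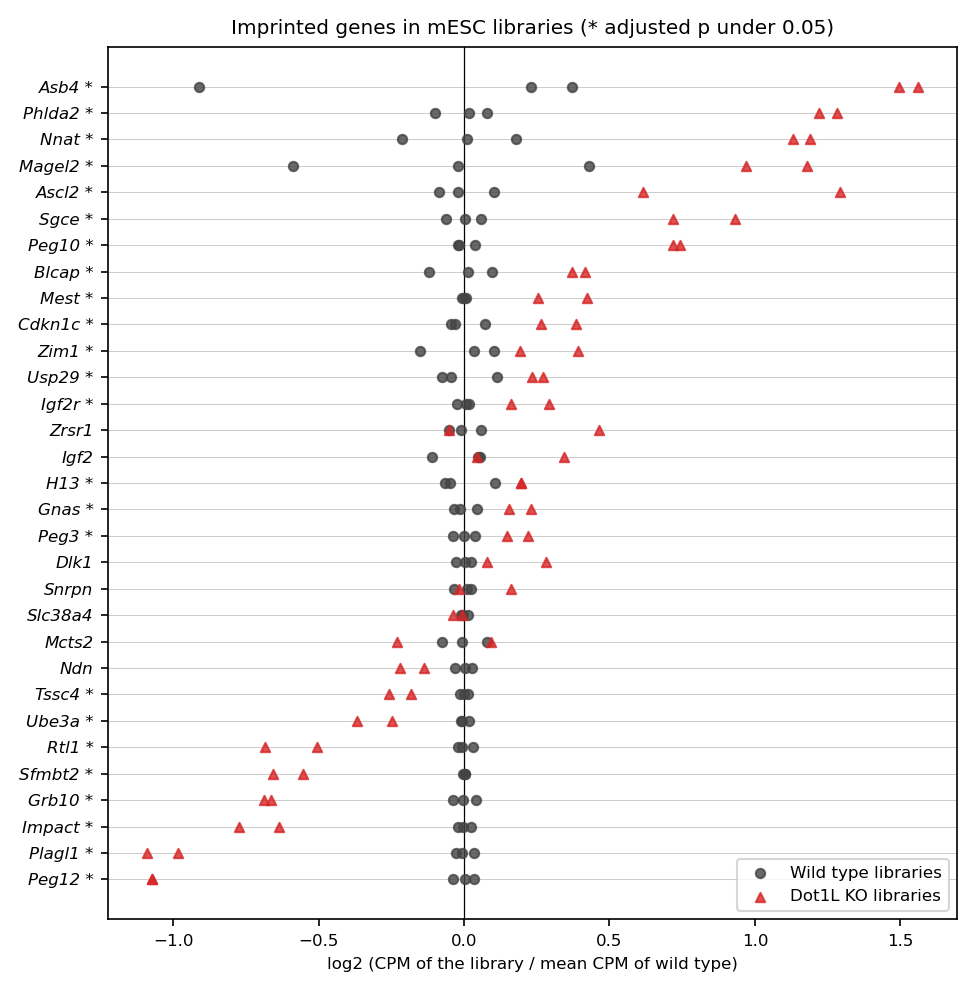
Each row is 1 of the 31 imprinted genes in mESC RNA, and each point is 1 library, placed by the log2 ratio of its CPM to the mean CPM of the 3 wild type libraries (grey circles, wild type; red triangles, Dot1L KO). Genes at the top had both KO libraries right of all wild type libraries, those at the bottom had both KO libraries left of them, and an asterisk marks an adjusted p under 0.05.

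Among the genes that restrain growth, those of the Kcnq1ot1 cluster on chromosome 7 rose. Phlda2, which limits growth of the placenta, was at 7.80, 8.14 and 7.20 CPM in wild type and 17.98 and 18.75 CPM in KO (log2 fold change 1.25 ± 0.08 SE, adjusted p = 8.78e-08). The KO libraries were both more than 2-fold above each wild type library. Cdkn1c, the cyclin-dependent kinase inhibitor p57, was at 9.14, 8.51 and 8.42 CPM and at 11.3 and 10.5 CPM (0.33 ± 0.09, adjusted p = 0.0102). Its groups did not overlap, and its call was lost in DESeq2 (adjusted p = 0.0544) and without KO replicate 1 (0.26, adjusted p = 0.0766). Igf2r, the receptor that takes IGF2 to the lysosome, was at 168, 163 and 167 CPM and at 204 and 186 CPM (0.23 ± 0.05, adjusted p = 0.00132), again without overlap.

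Grb10, an adaptor that dampens insulin and IGF receptor signalling, went the other way. It was at 79.3, 81.9 and 77.4 CPM in wild type and at 49.4 and 50.2 CPM in KO, a fall of 0.68 ± 0.05 SE on the log2 scale (log2 fold change -0.68, adjusted p = 1.88e-07). Plagl1, a zinc finger protein that stops proliferation and controls a network of imprinted genes, was at 61.1, 61.8 and 63.6 CPM and at 29.2 and 31.5 CPM (log2 fold change -1.03 ± 0.05 SE, adjusted p = 8.83e-09). Both genes were lower in each KO library than in any wild type library.

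The growth-promoting ligands did not pass the test. Igf2, the fetal growth factor, was at 7.36, 6.57 and 7.34 CPM in wild type and at 8.99 and 7.32 CPM in KO (0.20 ± 0.11, adjusted p = 0.177), and its groups overlapped. Igf2 was called without KO replicate 2 (0.34, adjusted p = 0.0388) and was at 0.05 without KO replicate 1 (adjusted p = 0.817). Dlk1, a transmembrane relative of Notch ligands, was at 1.85, 1.81 and 1.88 CPM and at 2.25 and 1.95 CPM (0.18 ± 0.18, adjusted p = 0.455). Both KO libraries lay above the wild type range for Dlk1, without a call, and the estimate was 0.08 without KO replicate 1 and 0.28 without KO replicate 2.

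Placental and retrotransposon-derived genes moved in both directions. Ascl2, the transcription factor of trophoblast progenitors, was at 2.32, 2.43 and 2.64 CPM in wild type and at 6.04 and 3.78 CPM in KO (0.99 ± 0.19, adjusted p = 0.00115). Both KO libraries lay above all wild type libraries but apart from each other, and the estimate was 0.61 without KO replicate 1. Peg10, a capsid-like gene taken from a retrotransposon and needed in the placenta, was at 578, 601 and 579 CPM and at 964 and 981 CPM (0.73 ± 0.04, adjusted p = 5.53e-09). Rtl1, the other gene of this origin, was at 19.01, 18.34 and 18.5 CPM and at 13.1 and 11.6 CPM, and fell (-0.59 ± 0.08, adjusted p = 4.47e-05). The RNA on the strand opposite Rtl1 also lies in the Dlk1-Meg3 domain, and strandedness of the counting is not given in the sources used here. Sfmbt2, a Polycomb-related gene required in extraembryonic tissue, was at 136, 135 and 136 CPM and at 92.4 and 86.2 CPM (-0.61 ± 0.05, adjusted p = 3.25e-07), with no overlap.

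The neighbours of Peg10 on chromosome 6 rose with it. Sgce, epsilon-sarcoglycan of the membrane, starts head to head with Peg10 and was at 12.52, 12.995 and 11.96 CPM in wild type and at 23.8 and 20.5 CPM in KO (0.83 ± 0.08, adjusted p = 3.37e-06). Asb4, a substrate adaptor of a ubiquitin ligase, was at 0.508, 0.461 and 0.209 CPM and at 1.16 and 1.11 CPM (1.51 ± 0.35, adjusted p = 0.00326), the largest fold change of the 31 genes but from 6 to 34 counts per library. With a minimum of 10 counts in every library it was not tested. All 3 genes of this cluster had both KO libraries above every wild type library.

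The Peg3 domain on chromosome 7 rose by small amounts. Peg3, a zinc finger gene that acts on maternal behaviour and growth, was at 405, 427 and 415 CPM in wild type and at 485 and 461 CPM in KO (0.18 ± 0.04, adjusted p = 0.00225). Usp29, a ubiquitin protease read from a start site next to that of Peg3, was at 21.5, 24.5 and 21.9 CPM and at 27.4 and 26.6 CPM (0.25 ± 0.07, adjusted p = 0.00853). Zim1, a zinc finger gene expressed from the maternal copy, was at 9.54, 9.09 and 8.00 CPM and at 11.7 and 10.2 CPM (0.30 ± 0.10, adjusted p = 0.0326). Groups did not overlap for any of the 3, but the call of Zim1 was lost in DESeq2 (adjusted p = 0.102), without WT replicate 2 (0.31, adjusted p = 0.0626), without WT replicate 3 (0.23, adjusted p = 0.118) and without KO replicate 1 (0.19, adjusted p = 0.245).

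Genes of the Snrpn region, the Prader-Willi and Angelman region of chromosome 7, did not move together. Magel2, a MAGE family regulator of ubiquitin ligases, was at 2.61, 1.29 and 1.91 CPM in wild type and at 3.79 and 4.39 CPM in KO (1.10 ± 0.23, adjusted p = 0.00166). Peg12, a FRAT family gene of WNT signalling, was at 12.3, 11.6 and 12.0 CPM and at 5.69 and 5.70 CPM (-1.07 ± 0.09, adjusted p = 9.66e-07), and Peg12 and Plagl1 were the members that fell by at least 1. Ube3a, the ubiquitin ligase lost in Angelman syndrome, was at 373, 380 and 374 CPM and at 291 and 316 CPM (-0.31 ± 0.04, adjusted p = 7.63e-05). Magel2 thus rose and the other 2 fell, each without overlap of the groups. Ndn, another MAGE family gene, was at 15.6, 15.0 and 15.4 CPM and at 13.9 and 13.2 CPM (-0.18 ± 0.07, adjusted p = 0.0655), with both KO libraries lower, and it was called in a fit on autosomal genes alone (-0.19, adjusted p = 0.0484). Snrpn, a core splicing protein that shares its transcript with Snurf, was at 209, 207 and 201 CPM and at 203 and 230 CPM (0.07 ± 0.05, adjusted p = 0.264), with overlap. Snrpn was called with upper-quartile scaling (0.14, adjusted p = 0.0349) and without KO replicate 1 (0.16, adjusted p = 0.0068).

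Among genes of RNA processing and translation, Impact fell most. It is an inhibitor of the GCN2 kinase, which slows translation, and was at 207, 213 and 209 CPM in wild type and at 122 and 135 CPM in KO (-0.70 ± 0.05, adjusted p = 1.12e-07), and neither KO library came near the wild type range. Tssc4, a factor of spliceosome assembly in the Kcnq1ot1 cluster, was at 13.6, 13.4 and 13.7 CPM and at 11.3 and 11.9 CPM (-0.22 ± 0.08, adjusted p = 0.0347). The groups of Tssc4 did not overlap, but its call was lost in DESeq2 (adjusted p = 0.14), with upper-quartile scaling (-0.15, adjusted p = 0.125), without WT replicate 1 (-0.22, adjusted p = 0.0754), WT replicate 2 (-0.23, adjusted p = 0.069), WT replicate 3 (-0.21, adjusted p = 0.0849) or KO replicate 1 (-0.19, adjusted p = 0.136). Zrsr1, a splicing factor retrogene inside Commd1, was at 101, 95.7 and 93.0 CPM and at 133 and 93.1 CPM (0.23 ± 0.10, adjusted p = 0.0951). KO replicate 1 was high and KO replicate 2 lay within the wild type range, so that the estimate was -0.05 without KO replicate 1 and 0.46 without KO replicate 2 (adjusted p = 8.10e-06). Zrsr1 was also called with upper-quartile scaling (0.29, adjusted p = 0.0376) and without a filter (0.22, adjusted p = 0.00269). Mcts2, a retrogene of a translation factor inside H13, was at 23.3, 24.7 and 22.2 CPM and at 19.9 and 24.9 CPM (-0.06 ± 0.09, adjusted p = 0.617), with overlap, and was called as lower without KO replicate 2 (-0.24, adjusted p = 0.0311). Reads of Zrsr1 and Mcts2 may be shared with the genes from which they were copied, so both values are uncertain.

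Among membrane and signalling genes, Nnat changed most. Nnat, a small proteolipid of the endoplasmic reticulum, was at 6.53, 5.59 and 7.34 CPM in wild type and at 14.8 and 14.2 CPM in KO (1.16 ± 0.11, adjusted p = 1.68e-06). Blcap, whose gene encloses Nnat, was at 22.2, 19.1 and 20.9 CPM and at 27.6 and 26.8 CPM (0.40 ± 0.07, adjusted p = 4.80e-04). Both rose without overlap, and reads of the pair cannot be told apart where the genes overlap. Mest, a hydrolase-fold protein of mesoderm, was at 114, 113 and 113 CPM and at 135 and 152 CPM (0.34 ± 0.05, adjusted p = 1.34e-04). Gnas, the stimulatory G protein locus, was at 81.7, 78.4 and 77.3 CPM and at 92.8 and 88.0 CPM (0.19 ± 0.05, adjusted p = 0.00581). H13, the signal peptide peptidase, was at 26.4, 26.1 and 29.4 CPM and at 31.3 and 31.3 CPM (0.20 ± 0.06, adjusted p = 0.023). These 3 were higher in every KO library than in every wild type library, but the call of H13 was lost in DESeq2 (adjusted p = 0.0825) and without WT replicate 1 (0.17, adjusted p = 0.0743), WT replicate 2 (0.16, adjusted p = 0.103), KO replicate 1 (0.19, adjusted p = 0.0641) or KO replicate 2 (0.19, adjusted p = 0.0574). Slc38a4, an amino acid transporter of placenta and liver, was at 212, 215 and 213 CPM and at 212 and 208 CPM (-0.02 ± 0.04, adjusted p = 0.674), the smallest change of the 31.

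Each gene was sorted by the parental copy that is textbook knowledge for it, as maternal, paternal or mixed. The sorting does not take in tissue differences for every gene, and copy use in these cells was not measured. All 9 genes sorted as maternal changed (6 higher, 3 lower), as did 12 of 19 sorted as paternal (7 higher, 5 lower). All 3 sorted as mixed (Blcap, Gnas and H13) changed too, all higher, and the background was 43.7%. Both directions thus occurred among genes sorted as maternal and among those sorted as paternal. These counts add the copies and do not show which copy moved.

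Of 26 factors that set, protect, read or erase imprints, 14 changed in KO cells, 3 higher and 11 lower, a share of 53.8% against 43.7% of all genes tested (22.3% higher and 21.4% lower). The largest changes were in Atrx, a chromatin remodeller, which was at 1354, 1434 and 1425 CPM in wild type and at 579 and 672 CPM in KO (-1.17 ± 0.06, adjusted p = 4.41e-09), and in Ctcfl, a testis paralog of CTCF, at 3.81, 3.35 and 3.03 CPM and at 5.83 and 5.60 CPM (0.75 ± 0.14, adjusted p = 5.99e-04). Dnmt3a, a de novo DNA methyltransferase, was at 208, 209 and 207 CPM and at 306 and 320 CPM (0.59 ± 0.04, adjusted p = 7.84e-08). Tet3, a methylcytosine oxidase, was at 44.9, 42.1 and 42.2 CPM and at 34.0 and 30.6 CPM (-0.42 ± 0.06, adjusted p = 1.00e-04). None of these 4 overlapped between the groups. Atrx lies on the X chromosome, where 60.4% of 737 tested genes were called lower against 19.9% of autosomal genes. All members with a change are autosomal, and the part of the lower X-linked RNA in their changes was not tested. Zfp445 (-0.25 ± 0.05, edgeR adjusted p = 7.18e-04) and Setdb1 (-0.13 ± 0.04, edgeR adjusted p = 0.0203) were among the 11 lower factors. Unlike Dnmt3a, Dnmt3b (-0.37 ± 0.04, edgeR adjusted p = 1.05e-05) and Dnmt3l (-0.28 ± 0.04, edgeR adjusted p = 9.78e-05) were also among the lower factors. Of the factors that hold imprints in place, Zfp57, Trim28, Dnmt1 and Uhrf1 did not pass the test. Log2 fold changes were -0.12 ± 0.07 (adjusted p = 0.156) for Zfp57, which binds the methylated hexamer, -0.08 ± 0.04 (0.112) for its partner Trim28, -0.09 ± 0.04 (0.0805) for the maintenance methyltransferase Dnmt1 and -0.02 ± 0.04 (0.713) for its guide Uhrf1. Zfp57 and Trim28 were called without KO replicate 2 (-0.28, adjusted p = 7.01e-05, and -0.12, adjusted p = 0.00615) and without a filter (-0.13, adjusted p = 0.0173, and -0.09, adjusted p = 0.0399). Dnmt1 was called without KO replicate 1 (-0.10, adjusted p = 0.0372), and Dnmt1 and Trim28 in a fit on autosomal genes alone (-0.10, adjusted p = 0.0379, and -0.10, adjusted p = 0.0477).

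In wild type mESCs, 16 of the 37 imprinted genes carried H3K79me2, counted where the gene body overlapped by at least 1 bp a region found in the lists of both libraries. These were Airn, Blcap, Gnas, H13, Igf2r, Impact, Kcnq1ot1, Mcts2, Meg3, Nnat, Peg10, Slc38a4, Snrpn, Tssc4, Ube3a and Zrsr1. Of all 49943 annotated genes 18.8% were marked, and of the 18589 genes tested in mESC RNA and given a position 42.5% were, so the 13 of 31 imprinted genes marked among those tested are close to that background. H3K79me3 was found on 9 of the 37 (Airn, Ascl2, Gnas, H13, Igf2r, Kcnq1ot1, Mcts2, Slc38a4 and Ube3a), or 7 of 31 among those tested, against 4.89% of annotated and 10.3% of tested genes. The count for H3K79me3 followed the list used: it was 18 with the list of wild type replicate 1 alone and 10 with that of replicate 2, and Blcap, Cdkn1c, Dlk1, Grb10, Nnat, Peg10, Plagl1, Sfmbt2 and Snrpn were on the first list only. Among those tested these lists marked 16 and 8 of 31, against 26.8% and 11.6% of tested genes. It was 5 at a −log10 q of at least 5 and 4 with an overlap of at least 500 bp. Either setting marked 3 of the 31 tested, against 6.05% and 8.68% of tested genes, so the count at 500 bp was close to its background. No imprinted gene overlapped a peak in any of the 4 Dot1L KO lists, which touched at most 0.402% of annotated genes. Members that overlap each other shared regions: Igf2r with Airn and H13 with Mcts2 for both marks, and Nnat with Blcap for H3K79me2. Each of these genes was counted on its own, so the counts of marked members include shared regions more than once.

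The highest-scoring peaks described where the marks lie (coordinates are on mm10, folds are the authors' enrichment per peak). Over Gnas the H3K79me2 peak was chr2:174285175-174293946 in wild type replicate 1, at 14.9-fold, and chr2:174288676-174293951 in replicate 2, at 12.0-fold. Over the noncoding RNA Kcnq1ot1 it was chr7:143277223-143296342, at 11.6-fold, and chr7:143278924-143296318, at 10.1-fold. Regions of both lists covered 55.8% of Kcnq1ot1, or 46579 bp, and the first of them was 19687 bp long, the longest stretch of the set near a start site. Kcnq1ot1 lies inside Kcnq1, a potassium channel gene with 81 to 99 counts in wild type libraries, and the coverage cannot be assigned to either transcript from position alone. Over Zrsr1 it was chr11:22973664-22981826, at 11.0-fold, and chr11:22973623-22978593, at 8.39-fold, and these peaks also lie in Commd1. The annotated genes Gnasas1 and Gm30189 overlap Gnas, and their part in the marks over Gnas was not tested.

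Slc38a4 was covered almost as widely as Kcnq1ot1. Regions of both lists took up 54.7% of its body, with the highest peak at chr15:97042992-97054975 (8.20-fold) and chr15:97043138-97052708 (8.89-fold). The peak over Ube3a was chr7:59229110-59238738 (8.53-fold) and chr7:59229117-59233328 (6.72-fold), and that over Snrpn was chr7:59998786-60003065 (7.14-fold) and chr7:59999060-60003143 (8.72-fold). Slc38a4 and Snrpn were among the members with the highest-scoring peaks, and neither passed the test in KO RNA, while Ube3a fell. By coverage Snrpn ranked low, since regions of both lists took up 1.69% of its annotated body of 467683 bp, against 21.0% for Ube3a. The annotated gene Snhg14 overlaps Ube3a and Snrpn, and its part in these marks was not tested.

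H3K79me3 peaks were shorter and lay within the H3K79me2 domains or beside a start. On Kcnq1ot1 the highest was chr7:143294632-143296208 (10.9-fold) and chr7:143293541-143295599 (6.29-fold), on Slc38a4 chr15:97054244-97054827 (6.11-fold) and chr15:97054381-97054819 (4.73-fold), and on Gnas chr2:174292364-174293862 (5.25-fold) and chr2:174293468-174293853 (5.71-fold). Igf2r and Airn, which overlap on opposite strands, shared the peak chr17:12769087-12769524 (4.71-fold) and chr17:12769230-12769533 (5.32-fold), near the start of Igf2r. H13 and Mcts2 shared chr2:152687614-152688092 (5.33-fold) and chr2:152687901-152688130 (3.69-fold), near the start of Mcts2. Ube3a and Ascl2 had lower peaks, up to 4.20-fold and 4.06-fold. Ascl2 was the only member with H3K79me3 regions and no H3K79me2 peak in either list.

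Within the gene body, the H3K79me2 region nearest to a start site lay just downstream of it for most marked members. Of the 14 with a RefSeq start site it began 35 to 1618 bp downstream in 12, for example 75 bp for Blcap, 205 bp for Kcnq1ot1, 224 bp for Snrpn and 360 bp for Ube3a. On Slc38a4 a region spanned an inner start site, whose promoter is printed above, and on Airn the nearest region began 12442 bp downstream, inside the shared part with Igf2r. Regions of both lists also lay within 5 kb upstream of the start site used for 5 of the 14, ending 240 bp before it for Gnas, 374 bp for Zrsr1, 917 bp for Nnat, 3018 bp for Slc38a4 and 4725 bp for Tssc4. For Slc38a4 this is the inner start site, so the region lies inside its own gene body. The Nnat region lies mostly in Blcap, and Zrsr1 itself lies inside Commd1.

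**Figure D2:**
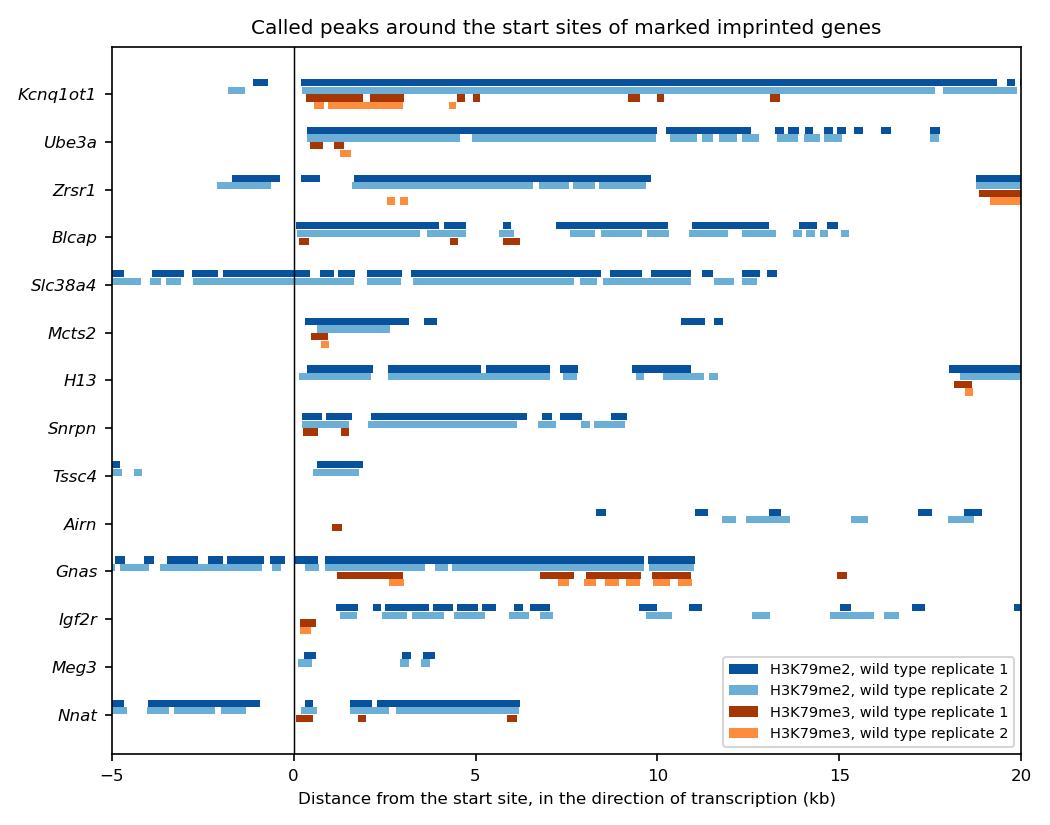
Each row is a marked imprinted gene with a RefSeq start site, drawn in the direction of transcription with the distance from the start site nearest to its H3K79me2 regions in kb on the x axis; each bar is a called peak in 1 wild type library (blues, H3K79me2; reds, H3K79me3). In 12 of the 14 rows H3K79me2 bars begin within 2 kb right of the line at 0, in some of them, such as Gnas, Nnat and Zrsr1, further bars lie left of it, and the longest bar that begins near the line is that of Kcnq1ot1.

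The RNA changes of members with and without H3K79me2 are given as a description, since their difference was not tested. Among the 13 marked genes with mESC RNA values 9 were called, with a median size of change of 0.23 on the log2 scale and a median wild type level of 96.4 CPM. The marked genes with the largest changes were Nnat (1.16), Peg10 (0.73) and Impact (-0.70). Nnat lies inside Blcap, so its H3K79me2 regions cannot be assigned to either gene from position alone. Of the 18 unmarked genes 15 were called, with a median size of 0.60 and a median level of 12.2 CPM. Over all tested genes 51.2% with the mark and 39.7% without were called, with median sizes of change of 0.16 and 0.33. Over all tested genes the medians of level were 53.3 CPM with the mark and 3.01 CPM without, and the medians of log2 fold change were -0.06 and 0.11. The levels differ between marked and unmarked genes, and their part in the sizes of change was not tested.

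In 8-cell embryos no imprinted gene was called with SGC0946. All 37 had a row and 30 passed the filter on low counts. Of those 30, 0 were called (edgeR adjusted p under 0.05), as were 0.0% of the 14351 genes tested, while 126 genes, 0.878%, were called by DESeq2 and none of them was an imprinted gene. At an unadjusted p under 0.05 there were 2 imprinted genes, against 8.15% of all genes. Replicate spread was far wider than in mESCs, with a biological coefficient of variation of 0.442 against 0.0468, and in simulated data of this spread 29.5% of genes changed by 1 on the log2 scale were recovered. Groups did not overlap for 7 members that were higher and 5 that were lower with SGC0946, against 20.1% and 19.2% of all genes (39.2% in all). Markers of feeder fibroblasts and of cumulus cells were near 0 in every embryo library, with sums of 0.53 to 2.86 and 0.40 to 1.24 CPM over 8 and 6 genes and 3 genes of each list at 0. The sum of 7 cleavage-stage markers was 2849 and 3174 CPM with DMSO and 2201 and 2661 CPM with SGC0946, that of 8 stem cell markers 1614 and 1697 CPM against 1106 and 1280 CPM, and that of 6 markers of 2-cell-like cells 3.17 and 5.84 CPM against 7.06 and 9.19 CPM. No gene of these lists was called, and their part in the levels of imprinted genes was not tested.

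The members with the lowest unadjusted p were Usp29 and Impact. Usp29 was at 34.4 and 30.8 CPM with DMSO and at 17.0 and 17.9 CPM with SGC0946 (log2 fold change -0.90 ± 0.26 SE, edgeR adjusted p = 0.382). Impact was at 60.9 and 42.9 CPM and at 93.9 and 69.0 CPM (0.65 ± 0.22, edgeR adjusted p = 0.437). Neither overlapped between the groups, and both had the sign opposite to that in KO mESCs. Impact depended on single libraries: without SGC0946 replicate 2 it was called (0.86, adjusted p = 0.0312), and it was at 0.42 without SGC0946 replicate 1 (adjusted p = 0.999) and 0.42 without DMSO replicate 2 (adjusted p = 0.754).

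Ascl2 had 18 and 38 counts with DMSO and 0 and 2 with SGC0946. The ratio of 56 to 2 counts, scaled for library size, was 30.8 (95% exact interval 8.15 to 261, which covers counting error only), and the edgeR adjusted p was 0.621. Phlda2 was at 20.2 and 3.47 CPM and at 7.40 and 4.23 CPM (-1.02 ± 0.62, adjusted p = 0.741). Sfmbt2 was at 77.9 and 26.6 CPM and at 33.3 and 30.5 CPM (-0.71 ± 0.36, adjusted p = 0.649). Phlda2 and Sfmbt2 were high in DMSO replicate 1 only, and without it their estimates were 0.74 and 0.26. Without DMSO replicate 2 they were -1.80 and -1.29, and Phlda2 was at -0.67 without SGC0946 replicate 2. Cdkn1c was high in the same library, at 30.2 CPM against 8.41 CPM in DMSO replicate 2 and 15.9 and 9.58 CPM with SGC0946.

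Rian, a noncoding RNA of the Dlk1-Meg3 domain, was at 1.44 and 0.641 CPM with DMSO and at 4.42 and 2.16 CPM with SGC0946 (1.66 ± 0.93, edgeR adjusted p = 0.708). Nnat was at 1.11 and 0.942 CPM and at 4.58 and 1.67 CPM (1.60 ± 0.94, adjusted p = 0.728), and Mest at 1.07 and 1.96 CPM and at 4.84 and 2.62 CPM (1.30 ± 0.80, adjusted p = 0.75). Each of these 3 was higher in both SGC0946 libraries, from 17 to 127 counts per library, and none was called. Without SGC0946 replicate 1 the estimates were 1.06 for Rian, 0.71 for Nnat and 0.79 for Mest.

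The noncoding RNAs of the set were listed for embryos alone, some of them at few counts. Kcnq1ot1 was at 178 and 105 CPM with DMSO and at 209 and 78.7 CPM with SGC0946 (0.02 ± 0.33), and Airn at 0.626 and 0.415 CPM and at 0.0762 and 0.973 CPM (0.02 ± 1.91). Meg3 was at 3.09 and 3.69 CPM and at 4.38 and 7.85 CPM (0.85 ± 0.56). The Kcnq1ot1 and Airn groups overlapped, and those of Meg3 did not. H19 and Mirg were not tested, with at most 13 counts and 3 counts in any library. Igf2r was high, at 1604 and 1492 CPM with DMSO and at 1264 and 1592 CPM with SGC0946 (-0.12 ± 0.12, adjusted p = 0.877).

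The other genes not tested for low counts were Dlk1, Rtl1, Zim1, Magel2 and Snrpn, with at most 19 counts in any library. Snrpn was listed at 0 in all 4 embryo libraries although it was at 201 to 230 CPM in mESCs. Snurf, which shares its span, was listed at 0 as well, and the part of the counting of overlapping genes in these values was not tested. The remaining tested members had log2 fold changes between -0.95 (Sgce) and 1.33 (Peg12), with standard errors of 0.20 to 1.84, and none was called.

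**Figure D3:**
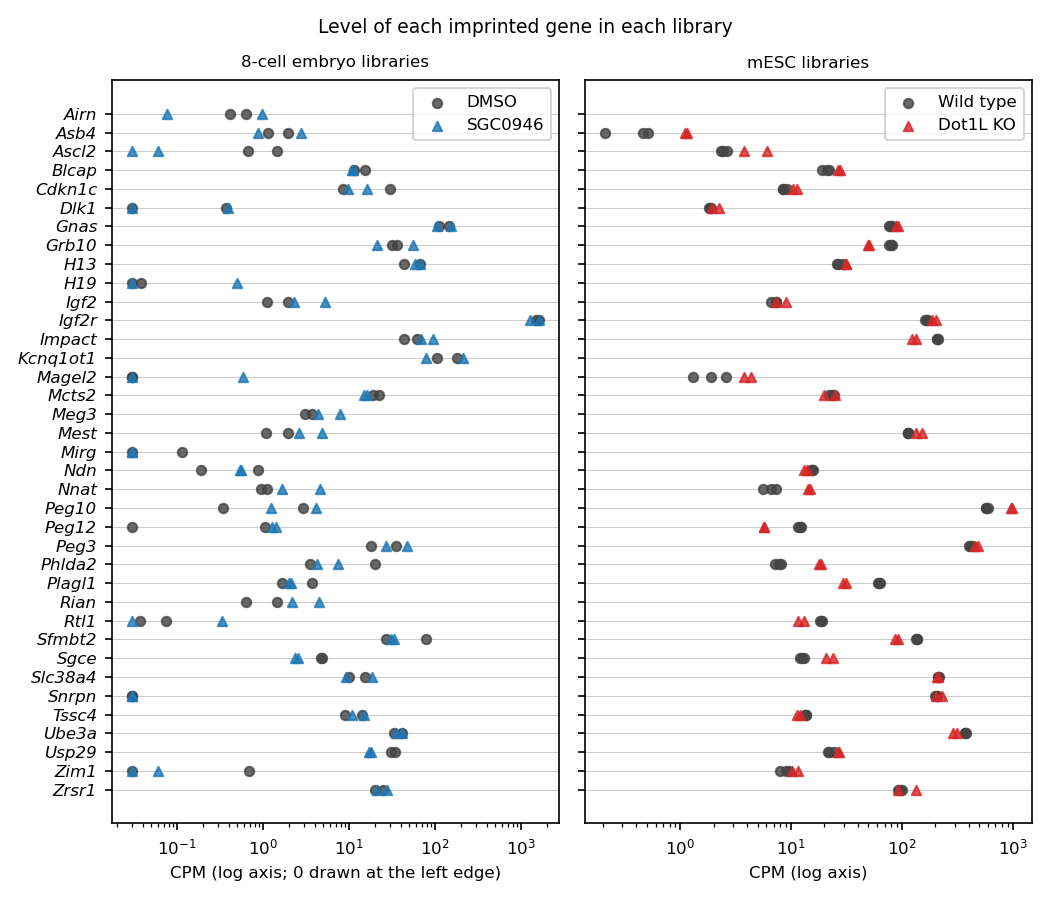
CPM on a log axis for each imprinted gene (rows) in each library, for embryos on the left (grey circles, DMSO; blue triangles, SGC0946; libraries at 0 drawn at the left edge) and mESCs on the right (grey circles, wild type; red triangles, Dot1L KO). The mESC points of 1 group sit close together, while those of 1 embryo group lie up to several-fold apart, as for Phlda2 at 3.47 and 20.2 CPM with DMSO.

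The RNA comparisons gave different signs for many members, as they did for many of all genes. Of the 24 genes called in mESCs, 21 were tested in embryos, and 9 of those had the same sign. Over all genes called in mESCs and tested in embryos, 52.4% of 6335 had the same sign. Nnat (1.16 in mESCs, 1.60 in embryos, or 0.71 without SGC0946 replicate 1) and Mest (0.34 and 1.30, or 0.79 without that library) were positive in both. Peg10 was positive in both as well (0.73 and 0.71 ± 1.06 SE). Its embryo groups overlapped, at 2.91 and 0.339 CPM with DMSO and 1.22 and 4.11 CPM with SGC0946. Phlda2 (1.25 and -1.02, or 0.74 without DMSO replicate 1), Sgce (0.83 and -0.95) and Usp29 (0.25 and -0.90) were positive in mESCs only in the main fit. Impact (-0.70 and 0.65) was negative in mESCs and positive in embryos. The embryo values did not pass the test, the perturbations differ (a gene knockout and an inhibitor), and the difference between the effects was not tested.

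**Figure D4:**
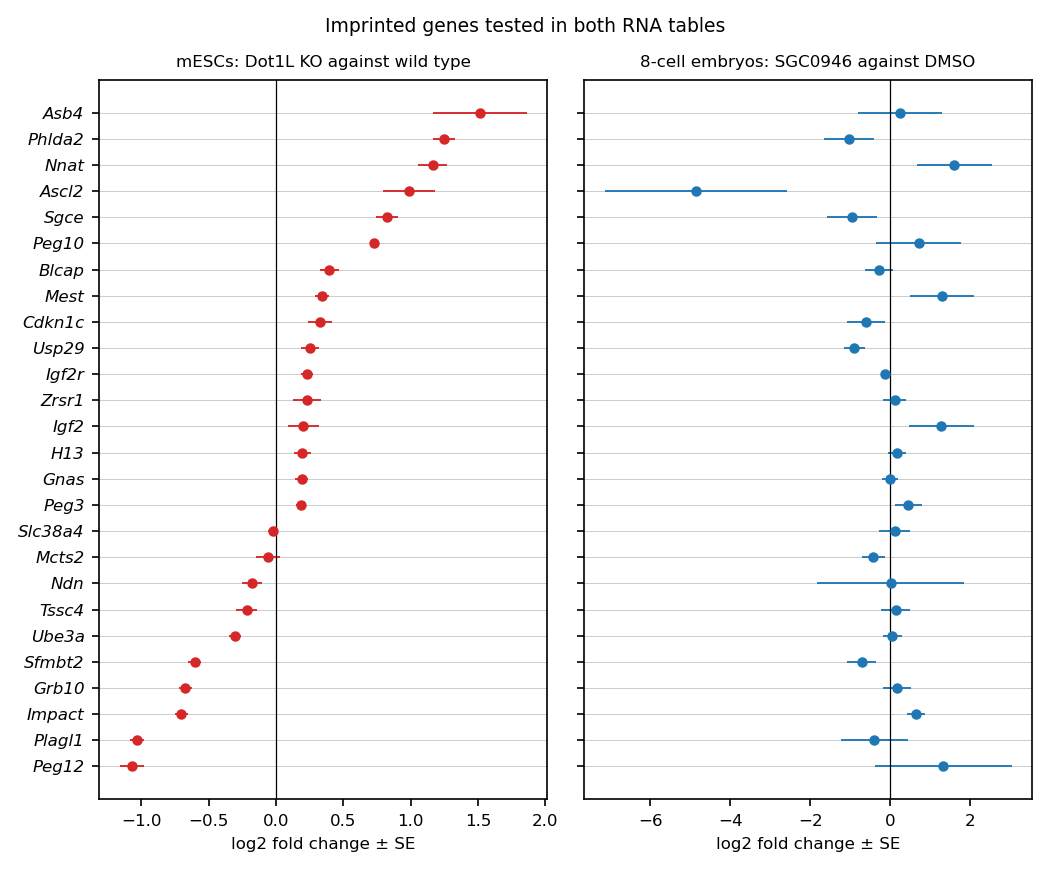
Log2 fold change ± SE of the imprinted genes tested in both tables, for Dot1L KO against wild type mESCs (left) and SGC0946 against DMSO embryos (right), in the order of the mESC values; the x axes differ in range. The embryo errors are wide, that of Ascl2 rests on 2 counts with SGC0946, and the embryo values do not follow the order of the mESC values.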

How the data were processed

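RNA of 5 mESC and 4 embryo libraries and ChIP of 8 mESC libraries were used. The 8 input libraries were not used here. Per the submitters' processing notes, kallisto is named for mESC RNA (STAR and HTSeq too for some libraries), STAR and HTSeq for embryo RNA, Bowtie2 and MACS2 for ChIP, and mm10 for all, without versions or roles. The mESC table as deposited holds expected counts per gene, of which 59.1 to 59.9% were whole per library, and these were rounded for the fits. Its 69 rows without a symbol held at most 0.0163% of counts and were left out. The embryo table as deposited holds whole read counts. Strandedness of counting is not given in the sources used here. The deposited peak lists, 1 per library, give each peak's fold enrichment over its background (a ratio), its −log10 q value and a score, per the file layout, and these are the authors' values.

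Each RNA table was fitted alone over all genes with edgeR 4.0.16 (R 4.3.3): filterByExpr, TMM scaling, quasi-likelihood F test, Benjamini-Hochberg adjustment, called at 0.05, with a prior count of 2. In data simulated from the mESC means the fit of 19266 genes recovered 60.9% of genes changed by 0.5 on the log2 scale and 80.3% of those changed by 1. In data simulated from the embryo means the fit of 13635 genes recovered 4.76% and 29.5%. Alternatives were DESeq2 1.42.0, limma 3.58.1 (voom), other scalings and filters, a replicate block, and leaving out each library. Autosomal genes alone, and each wild type peak list on its own, were added after seeing the data.

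Values in every library are given for called members and, where none was called, for the 8 tested members with the lowest unadjusted p. Of the imprint factors, the 4 largest called changes and Zfp57, Trim28, Dnmt1 and Uhrf1 are named. Zfp445, Setdb1, Dnmt3b and Dnmt3l were named after their values were seen. Peaks named are the highest-scoring of up to 6 members per mark, with members that share a peak kept together. Cdkn1c, Igf2r, Kcnq1ot1, Airn, Meg3 and Peg10 in embryos were named after their values were seen. The members and lists were chosen with earlier results of these data known. Replicates of each group differed beyond counting noise (chi-square per degree of freedom 2.43 to 38.6). Counting intervals cover counting error only.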

Additional observations from a re-analysis of the deposited data

How the results depend on the processing

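The count of imprinted genes called in mESCs was 20 to 25 under the other scalings, filters and tools, and 21 to 26 when 1 library was left out, against 24 in the report. It fell to 11 in the test against a log2 change of 0.5, where 2 of the 14 imprint factors remained called, and the count of factors was 13 to 20 without 1 library. In embryos 0 members were called under each alternative except without SGC0946 replicate 2, where Impact was, a range of 0 to 1. Of the imprint factors in embryos, 0 were called in the report and 1 (Arid4a) was called with DESeq2, with limma-voom, without a filter, with a minimum of 10 counts per library and with the replicate block, with 0 to 2 without 1 library. H3K79me2 marked 13 to 17 members under the alternatives run, and 14.8 to 22.3% of annotated genes. H3K79me3 marked 18 with the list of wild type replicate 1, 5 at a −log10 q of at least 5, 4 with 500 bp of overlap and 8 to 10 under the other alternatives. The share of annotated genes moved too, to 12.7% with that list, 2.88% at that q and 3.76% with 500 bp.

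Estimates near 0 changed sign. With upper-quartile scaling Mcts2 was at 0.0052, Slc38a4 at 0.043 and Uhrf1 at 0.045. Leaving out 1 library gave -0.053 (without KO replicate 1) to 0.46 (without KO replicate 2) for Zrsr1, -0.021 (without KO replicate 2) to 0.16 for Snrpn, -0.24 to 0.087 (without KO replicate 1) for Mcts2, -0.053 to 0.0064 (without KO replicate 1) for Uhrf1 and -0.28 to 0.014 (without KO replicate 1) for Zfp57. In embryos it gave -1.80 to 0.74 (without DMSO replicate 1) for Phlda2 and -1.29 to 0.26 (without DMSO replicate 1) for Sfmbt2. The cause was not tested. Of the other estimates of named genes, 462 in mESCs and 92 in embryos kept direction and side of the threshold, and 19 lost and 16 gained a call in mESCs.

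Same-numbered libraries, centred within their groups, correlated at 0.0046 and -0.03 in mESCs and 0.05 in embryos. With 2 libraries in a group the centred values mirror each other, so these correlations cannot show whether replicate numbers pair the samples. With the number as a block 23 members and 13 factors were called in mESCs, and 0 members and 1 factor in embryos. With 2 libraries in a group, leaving 1 out assumes that the lone library varies like the others.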
